A study of Mus musculus with 92 samples.

Results

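The genes described here are 10 members of the mouse EGF receptor family system, taken by symbol from the 54532 genes of each count table. They are the ligands Areg (amphiregulin), Ereg (epiregulin), Hbegf (heparin-binding EGF-like growth factor), Btc (betacellulin), Tgfa (transforming growth factor alpha) and Epgn (epigen), the receptors Egfr, Erbb2 and Erbb3, and Lrig1, a transmembrane inhibitor of these receptors. Their RNA was followed by RNA-seq over 92 libraries in 21 groups. The study deleted Eif4g2, which encodes a translation initiation factor, in mouse intestine and in cultures derived from it, and separately treated organoids with the small molecule A-485, which blocks acetylation by p300 and CBP.

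The tissue came from mice of 2 CreER drivers given tamoxifen. Homozygous mice were Eif4g2(flox/flox) and heterozygous controls Eif4g2(flox/+), so the controls also carried CreER, received tamoxifen and had 1 floxed allele. Rosa26(CreER), a driver active in most cell types, was sampled on day 9, with crypts from 4 homozygous and 5 heterozygous mice and villi from 5 of each. Vil1(CreER), a driver of the intestinal epithelium, was sampled at 3 months, after tamoxifen at 100 mg/kg on 4 days, with crypts from 3 homozygous and 4 heterozygous mice and villi from 6 and 4. All cultures carried Rosa26(CreER) and grew in ENR medium, which contains EGF, Noggin and R-spondin, so every culture, controls included, received an EGF receptor ligand from outside. A first organoid set held Eif4g2(flox/flox) lines with DMSO or with 4-hydroxytamoxifen (4-OHT), which activates CreER, in 3 libraries each at day 6. In the second organoid set all libraries had 4-OHT, in 4 flox/flox, 4 flox/+ and 4 Eif4g2(+/+) libraries, the last called CreER-only below. Fetal intestinal spheroids, a culture of fetal epithelium, were flox/flox (6 lines) or flox/+ (5 lines), each line with DMSO and with 4-OHT. Organoids with DMSO or with 3, 5 or 10 µM A-485 for 4 days had 4 libraries each, the first line Eif4g2(+/+) and the other 3 flox/flox without 4-OHT.

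EGF family ligands are made as membrane proteins, are cut from the cell surface by ADAM proteases and bind EGFR, which pairs with itself or with ERBB2 or ERBB3 and signals through RAS and ERK. ERBB2 has no known ligand of its own, and ERBB3 has a weak kinase and signals through its partners. In the small intestine the pathway drives the growth of crypt cells, and Lrig1, which marks crypt stem cells, restrains it.

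Areg, Ereg, Epgn and Btc are neighbours on mouse chromosome 5 (GRCm38), where the cluster spans 375.5 kb. Epgn lies at chr5:91027464-91035215, Ereg at chr5:91074622-91093646 and Areg at chr5:91139599-91148432 on the plus strand, and Btc at chr5:91357261-91402994 on the minus strand. Egfr lies at chr11:16752203-16918158 and Erbb2 at chr11:98412470-98437716 on the plus strand, Erbb3 at chr10:128567523-128589652 on the minus strand, Tgfa at chr6:86195223-86275719 on the plus strand and Lrig1 at chr6:94604529-94700158 on the minus strand. Hbegf lies apart from all of them. Egfr, Erbb2, Ereg, Tgfa and Lrig1 each overlap an annotated gene on the opposite strand, and the strand setting of the counting is not given in the sources used here, so reads of such partners could not be told apart from theirs.

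The 250 bases before the RefSeq starts of Areg, Btc and Tgfa are shown because Btc and Tgfa rose further with each A-485 dose and Areg did not, as described further on. They come from RefSeq on GRCm38.p6, where 7 of the 10 members had an entry. Capitals mark TGACGTCA, the cyclic AMP response element, which is bound by CREB, a factor known to work with CBP and p300.
Areg, chr5:91139349-91139598, plus strand: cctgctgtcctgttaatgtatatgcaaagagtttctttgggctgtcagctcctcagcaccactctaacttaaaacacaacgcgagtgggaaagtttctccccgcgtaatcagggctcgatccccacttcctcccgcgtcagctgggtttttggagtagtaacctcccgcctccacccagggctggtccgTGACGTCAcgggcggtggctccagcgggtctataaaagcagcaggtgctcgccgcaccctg
Btc, chr5:91402995-91403244, minus strand: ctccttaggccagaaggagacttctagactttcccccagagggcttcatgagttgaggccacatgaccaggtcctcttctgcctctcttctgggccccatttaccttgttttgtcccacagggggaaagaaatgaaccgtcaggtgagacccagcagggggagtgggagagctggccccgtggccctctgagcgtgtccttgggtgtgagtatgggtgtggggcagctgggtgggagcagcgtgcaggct
Tgfa, chr6:86194972-86195221, plus strand: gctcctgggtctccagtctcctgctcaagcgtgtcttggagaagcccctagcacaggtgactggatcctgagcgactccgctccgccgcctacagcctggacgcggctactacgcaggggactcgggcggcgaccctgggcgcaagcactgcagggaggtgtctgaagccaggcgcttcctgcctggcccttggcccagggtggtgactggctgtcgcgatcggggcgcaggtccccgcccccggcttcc
Of these windows, Areg held the element, which reads the same on both strands, once, beginning 61 bases before the start. It is present in 1.55% of 32851 RefSeq windows of this length. TGANTCA, the AP-1 motif, is present in 6.75% of windows on either strand and GGAATG, the TEAD motif, in 12.6%, and neither was in the 3 windows shown. Their GC content was 57.2% for Areg, 59.6% for Btc and 69.2% for Tgfa, against a median of 52.4% over all windows. The windows of Egfr, which rose at each A-485 dose, and Lrig1, which fell, held none of the 3 motifs. Hbegf also rose further with each dose, and no window of it is given. The matches describe letters only, and their part in the dose responses was not tested.

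Library totals ran from 8652040 to 37611126 counts, and the A-485 libraries were the shallowest, at up to 16436145. Levels are CPM, a gene's counts scaled to library size, after TMM scaling within a set, and differences are log2 fold changes ± SE from edgeR's quasi-likelihood test, called at an adjusted p under 0.05 over all genes tested. "Rose" and "fell" are used for called differences. Eif4g2 fell by 1.98 and 2.70 on the log2 scale in homozygous Rosa26 crypts and villi, by 0.99 and 1.37 in Vil1 crypts and villi, by 2.37 in the first organoids and by 2.82 in flox/flox spheroids. All 8 pan-epithelial markers averaged over 1 CPM in every group. In Rosa26 mice the Y-linked Ddx3y was detected in all 10 heterozygous libraries, but in 1 of 4 homozygous crypt and 2 of 5 homozygous villus libraries. The mitochondrial share of counts averaged 18.9% (13.7 to 25.2) in homozygous against 8.55% (6.24 to 12.4) in heterozygous Rosa26 crypts. In Vil1 crypts it averaged 35.7% (30.4 to 40.3) against 23.3% (17.5 to 30.8), with ranges that overlapped. In villi it averaged 5.03% against 9.75% (Rosa26) and 12.5% against 17.1% (Vil1), the other way and with overlapping ranges. Its part in the crypt and villus results, and in the differences between them, was not tested.

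Of the 10 genes, 9 passed the filter on low counts in all 6 sets. Epgn passed in none: it had 0 counts in 45 libraries and at most 10 in any, so its changes were not detectable at this depth. Per kilobase, which lets genes be set side by side, Erbb3 was the most abundant receptor and Egfr the least in each of the 21 groups. In heterozygous Rosa26 villi Erbb3 averaged 165.5 CPM per kb, Erbb2 65.2 and Egfr 4.07. Among the ligands of those villi Areg averaged 32.6 CPM per kb, Hbegf 26.0, Tgfa 9.91, Btc 1.39 and Ereg 0.981. In heterozygous Rosa26 crypts the most abundant ligand was Tgfa, at 3.00 CPM per kb, and Areg averaged 1.18.

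Set on 1 scale over all libraries, the groups ranked differently for each gene, and 190 of 200 neighbouring pairs of groups had overlapping ranges. Areg was highest in the first organoids with 4-OHT (139.4 CPM on this scale) and lowest in heterozygous Vil1 crypts (1.52). Ereg was highest in flox/flox spheroids with 4-OHT (75.0) and in homozygous Vil1 villi (69.2), and the latter did not overlap the next group, flox/flox spheroids with DMSO (29.4). Btc (139.6) and Tgfa (224.0) were highest with 10 µM A-485, in both cases clear of the next group. Egfr was also highest with 10 µM A-485 (191.2) and Hbegf in homozygous Vil1 villi (110.6), each overlapping its neighbour. Erbb2 (454.1) and Erbb3 (1436) were highest in homozygous Rosa26 villi. Lrig1 was highest in CreER-only organoids (334.4) and lowest in heterozygous Rosa26 villi (14.6).

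In the heterozygous tissue, the ligands Areg, Ereg, Hbegf and Tgfa and the receptors Erbb2 and Erbb3 were lower in crypts than in villi, and Lrig1 was higher. These were 7 of 9 members in both drivers, where 77.1% (Rosa26; 40.6% higher, 36.4% lower) and 67.9% (Vil1; 35.2% higher, 32.7% lower) of all genes tested were called, so the count itself was close to the background. In Rosa26 mice Areg stood at 2.17, 0.696, 1.12, 2.29 and 0.863 CPM in crypts and at 47.6, 27.7, 33.0, 64.6 and 25.1 in villi. No library of one compartment reached the other, and the difference was -4.81 ± 0.39 (SE; edgeR adjusted p = 3.72e-07). Hbegf differed by -3.75 ± 0.19 (edgeR adjusted p = 7.47e-09) and Lrig1 by 3.68 ± 0.12 (9.04e-10). In Vil1 mice the differences were -4.32 ± 0.75 for Areg, -3.85 ± 0.42 for Hbegf and 3.20 ± 0.14 for Lrig1. Egfr and Btc were not called in either driver, with Egfr at -0.40 (Rosa26) and -0.11 (Vil1).

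In homozygous tissue the called ligands all rose, while Egfr and Lrig1 differed in their response between crypt and villus. In Rosa26 crypts 3 of 9 members were called, 2 of them higher, against 20.2% of all genes (8.63% higher, 11.6% lower). In Rosa26 villi 4 of 9 were called, all higher, against 33.2% (15% higher, 18.2% lower). In Vil1 mice 7 of 9 were called in crypts, 3 of them higher, against 29.3% (11.6% higher, 17.7% lower). In their villi 6 of 9 were called, all higher, against 42.5% (20.9% higher, 21.6% lower). Each of these members is described below, ligands first. In such bulk tissue fewer cells of a type and less RNA per cell cannot be told apart.

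**Figure D1:**
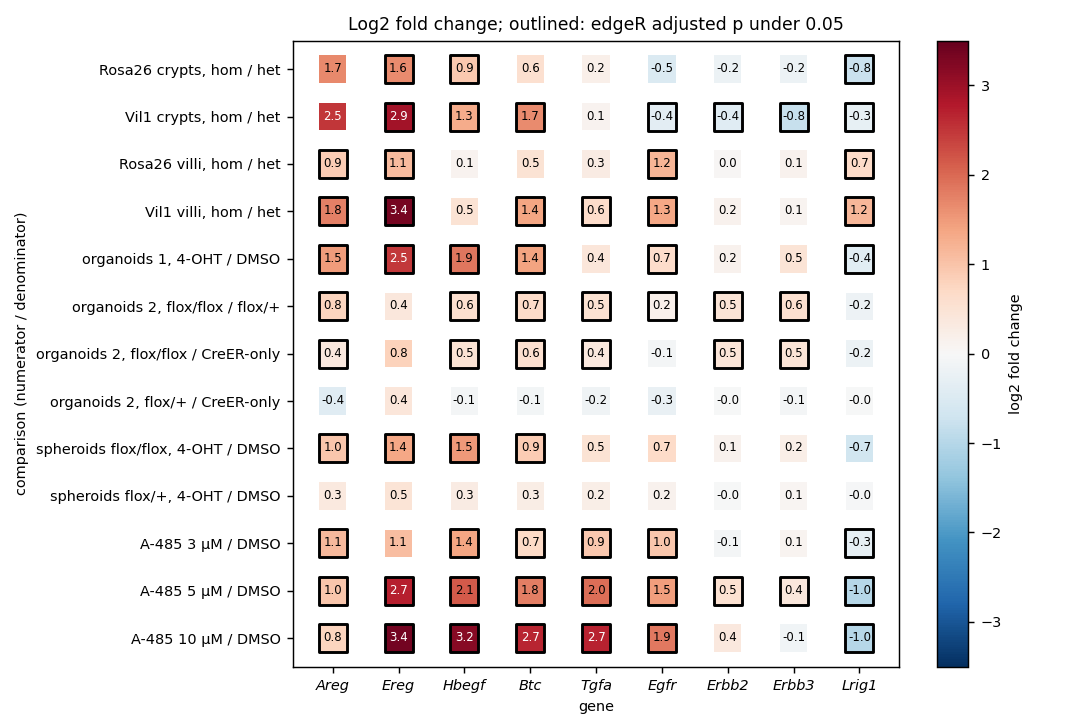
Log2 fold change (color) of the 9 tested members (columns) in each comparison (rows), with outlines at an edgeR adjusted p under 0.05. Ereg is outlined in all 4 homozygous against heterozygous tissue rows, from 1.10 to 3.35, and Lrig1 turns from negative in the crypt rows to positive in the villus rows.

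Ereg, a ligand of EGFR and ERBB4, rose in homozygous tissue of both drivers and both compartments. In Vil1 villi its 4 heterozygous libraries stood at 5.40, 6.49, 5.62 and 5.85 CPM and the 6 homozygous ones ran from 44.1 through a median of 52.5 to 99.7. The groups were far apart, a rise of 3.35 ± 0.24 (edgeR adjusted p = 4.1e-07). Vil1 crypts held 0.926, 1.69, 0.944 and 1.35 CPM in heterozygous and 10.6, 7.92 and 9.68 in homozygous mice, again without overlap and with a rise of 2.93 ± 0.25 (edgeR adjusted p = 0.000184). In Rosa26 crypts Ereg stood at 1.40, 0.569, 0.829, 1.43 and 0.989 CPM in heterozygous and 4.04, 3.37, 2.44 and 2.75 in homozygous mice, a rise of 1.65 ± 0.31 (edgeR adjusted p = 0.0071). In Rosa26 villi the groups overlapped, since the homozygous library at 4.82 lay below heterozygous ones at 5.69 and 5.91, and the rise was 1.10 ± 0.29 (edgeR adjusted p = 0.0131). The Rosa26 villus call was lost with Y-linked transcripts as a covariate (edgeR adjusted p = 0.0948).

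Areg, the most abundant ligand per kilobase in heterozygous Rosa26 villi, rose in villi of both drivers. Rosa26 villi held 47.6, 27.7, 33.0, 64.6 and 25.1 CPM in heterozygous and 83.8, 84.7, 90.9, 65.2 and 56.9 in homozygous mice, a rise of 0.90 ± 0.25 (edgeR adjusted p = 0.0178). The homozygous library at 56.9 alone lay below a heterozygous one, and with all 4 tissue groups in 1 fit the call was lost (edgeR adjusted p = 0.0634). In Vil1 villi the heterozygous libraries stood at 32.8, 13.1, 35.5 and 19.8 CPM and the homozygous ones from 51.1 through a median of 71.6 to 181, a rise of 1.77 ± 0.40 without overlap (edgeR adjusted p = 0.00504). In crypts Areg was not called, although the groups of Vil1 mice did not overlap: 1.64, 0.0685, 1.95 and 1.31 CPM against 9.51, 4.98 and 6.63. That difference was 2.51 ± 0.80 (edgeR adjusted p = 0.055). Heterozygous replicate 2 held 3 counts, and without it the difference was 2.11 (edgeR adjusted p = 0.00102). In Rosa26 crypts the difference was 1.68 ± 0.55 (edgeR adjusted p = 0.0594), and it was called without homozygous replicate 4 (0.0446) or 5 (0.0269).

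Hbegf, a ligand of EGFR and ERBB4, rose in crypts. In Vil1 crypts it stood at 4.87, 3.45, 4.78 and 4.86 CPM in heterozygous and 12.3, 7.96 and 12.9 in homozygous mice, a rise of 1.30 ± 0.21 without overlap (edgeR adjusted p = 0.00271). In Rosa26 crypts it stood at 4.92, 4.27, 4.60, 5.55 and 3.83 CPM against 13.2, 8.88, 5.90 and 5.84, also without overlap, a rise of 0.93 ± 0.27 (edgeR adjusted p = 0.0379). That call was lost when homozygous replicate 1 or 3 or any 1 heterozygous library was left out, with adjusted p up to 0.0895. In villi it was not called in either driver, at 0.11 ± 0.27 (Rosa26) and 0.52 ± 0.32 (Vil1). Heterozygous replicate 3 of the Vil1 villi stood at 127 CPM against 40.2 to 58.8 in the other 3, and without it the difference was 1.03 (edgeR adjusted p = 0.00201).

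Btc, which binds EGFR and ERBB4, rose in Vil1 mice. Vil1 crypts held 6.25, 4.50, 8.83 and 6.59 CPM in heterozygous and 25.0, 18.5 and 18.2 in homozygous mice, a rise of 1.66 ± 0.22 (edgeR adjusted p = 0.00134). Vil1 villi ran from 5.23 to 6.83 CPM in heterozygous and from 10.3 through a median of 16.0 to 21.1 in homozygous mice, a rise of 1.38 ± 0.20 (edgeR adjusted p = 0.000148). Neither pair of groups overlapped. In Rosa26 mice Btc was not called, at 0.55 ± 0.25 in crypts and 0.50 ± 0.22 in villi. Tgfa, a ligand of EGFR alone, rose in Vil1 villi, from 41, 36.0, 31.9 and 38.6 CPM to a range of 52.2 to 73.8 with a median of 54.5. This was 0.64 ± 0.12 without overlap (edgeR adjusted p = 0.000958). Tgfa was not called in Rosa26 villi (0.28 ± 0.11) or in the crypts of either driver.

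Egfr rose in villi and not in crypts. In Rosa26 villi it stood at 28.7, 38.2, 61.9, 58.0 and 43.4 CPM in heterozygous and 72.7, 141, 78.6, 165 and 85.6 in homozygous mice, a rise of 1.18 ± 0.28 without overlap (edgeR adjusted p = 0.00916). In Vil1 villi it stood at 36.8, 31.8, 40.0 and 22.3 CPM against 54.5 to 166 with a median of 69.2, a rise of 1.34 ± 0.31 (edgeR adjusted p = 0.00474). Without the library at 166 the Vil1 value was 1.01 (edgeR adjusted p = 0.00113). In Rosa26 crypts Egfr was at -0.52 ± 0.22 and not called. In Vil1 crypts it fell by 0.36 ± 0.09 (edgeR adjusted p = 0.0208), from 27.8, 26.7, 32.8 and 29.4 CPM to 23.7, 21.7 and 22.8, and that call was lost on leaving out any 1 homozygous library (0.0517 to 0.106) and with all 4 tissue groups in 1 fit (0.464). The villus effect minus the crypt effect was 1.82 ± 0.38 in Rosa26 mice (edgeR adjusted p = 0.0077) and 1.72 ± 0.41 in Vil1 mice (0.0124).

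Erbb3 and Erbb2, the receptors most abundant per kilobase, fell in Vil1 crypts. Erbb3 stood at 323, 269, 273 and 350 CPM in heterozygous and 159, 160 and 197 in homozygous mice, a fall of 0.82 ± 0.13 without overlap (edgeR adjusted p = 0.00245). Erbb2 stood at 111, 98.0, 89.5 and 126 CPM against 75.0, 78.7 and 81.8, a fall of 0.43 ± 0.12 (edgeR adjusted p = 0.0259). The Erbb2 call was lost without heterozygous replicate 1 or any 1 homozygous library (0.0612 to 0.101). Neither receptor was called in villi or in Rosa26 crypts. In Vil1 mice the villus effect exceeded the crypt effect by 0.93 ± 0.22 for Erbb3 and by 0.61 ± 0.17 for Erbb2 (edgeR adjusted p = 0.011 and 0.0228).

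Lrig1 fell in crypts, where it was abundant, and rose in villi, where it was scarce. In Rosa26 crypts it stood at 161, 164, 164, 120 and 149 CPM in heterozygous and 67.9, 80.0, 75.8 and 116 in homozygous mice, a fall of 0.79 ± 0.15 without overlap (edgeR adjusted p = 0.00692). In Rosa26 villi it stood at 12.7, 11.1, 11, 13.7 and 10.4 CPM against 14.9, 23.6, 27.1, 17.7 and 13.1, a rise of 0.66 ± 0.19 (edgeR adjusted p = 0.019; 0.0843 with the Y-linked covariate). In Vil1 crypts it fell by 0.28 ± 0.09 (edgeR adjusted p = 0.0415), a call lost in 5 of 7 fits that left out 1 library, namely without heterozygous replicate 1 or 4 or any homozygous one, and with all 4 tissue groups in 1 fit (0.609). Vil1 villi gave a rise of 1.17 ± 0.35 (edgeR adjusted p = 0.0193), from a range of 9.95 to 14.8 CPM to one of 13.8 to 62.5. That call was lost without heterozygous replicate 1 (0.0502) or 4 (0.0606). The villus effect exceeded the crypt effect by 1.54 ± 0.27 in Rosa26 mice (edgeR adjusted p = 0.00218) and by 1.48 ± 0.46 in Vil1 mice (0.0395).

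**Figure D2:**
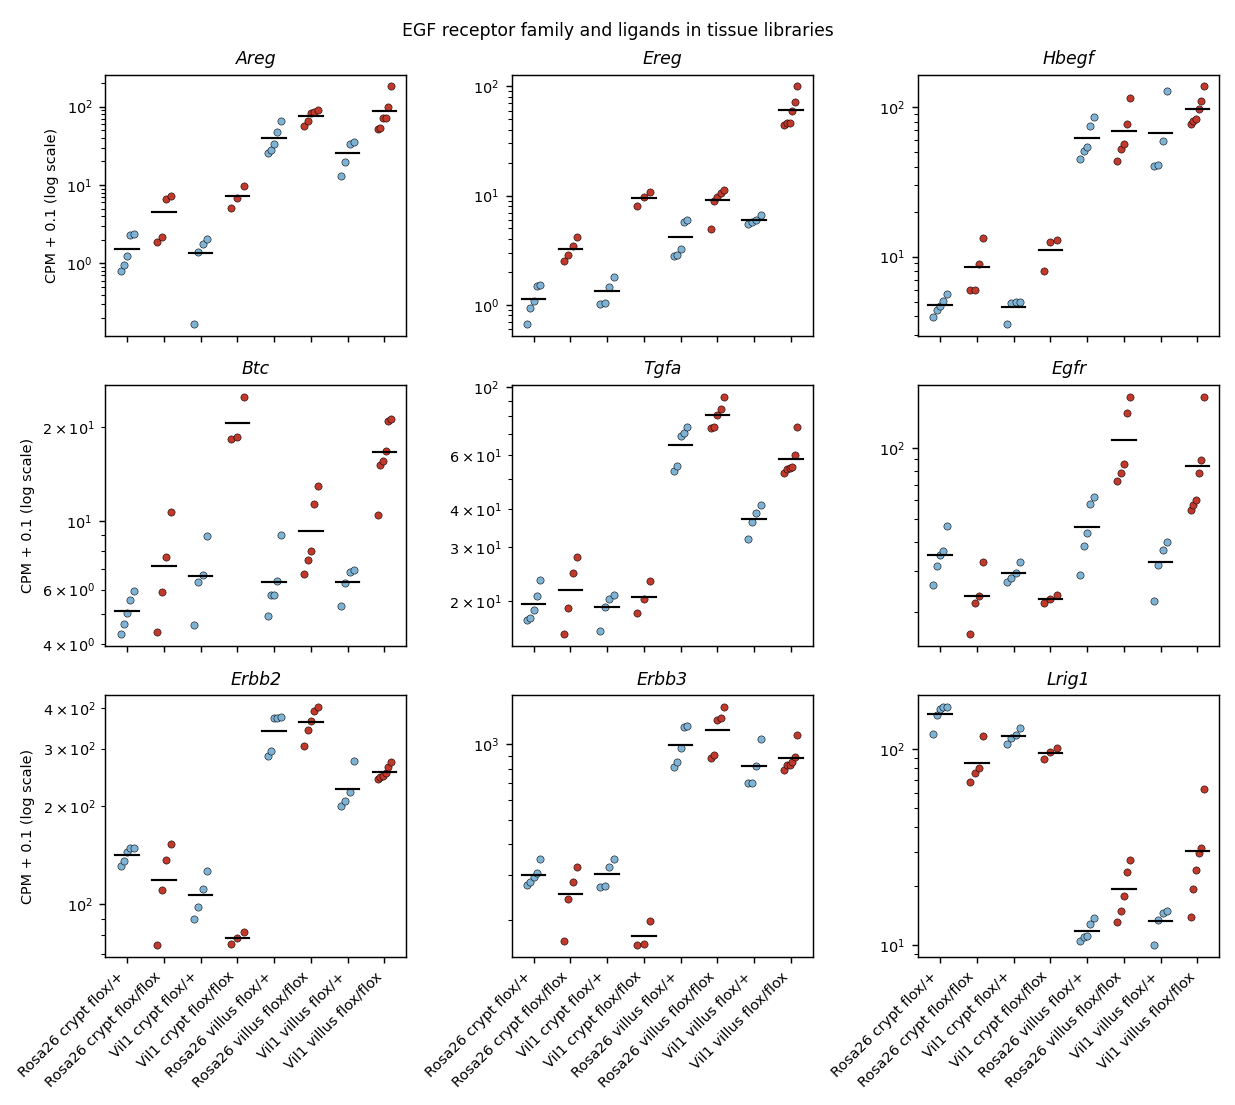
CPM (log axis) of the members in each tissue library, with points for libraries grouped by driver, compartment and genotype. Ereg in Vil1 villi separates completely, with heterozygous libraries at or below 6.49 and homozygous ones at or above 44.1.

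The interaction of genotype with compartment was called for 2 of 9 members in Rosa26 mice, against 11.5% of all genes (6.68% higher, 4.86% lower), and for 5 of 9 in Vil1 mice against 15.5% (9.38% higher, 6.14% lower). In Vil1 mice the median of all genes was itself 0.11. These were Egfr and Lrig1 in both drivers and Erbb2, Erbb3 and Tgfa (0.54 ± 0.18, edgeR adjusted p = 0.0485) in Vil1 mice. With the animal as a block the Tgfa value was 0.43 (edgeR adjusted p = 0.0961). In Vil1 mice the Tgfa call was lost in 10 of 17 fits without 1 library, that of Lrig1 in 9, which included the fits without any 1 homozygous crypt library, and that of Erbb2 in 4, without heterozygous crypt replicate 4, homozygous crypt replicate 1 or 2 or heterozygous villus replicate 1 (adjusted p up to 0.131, 0.0949 and 0.0796). Areg, Ereg, Hbegf and Btc were not called in either driver.

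Markers of several cell types moved with genotype in these tissues. The summed level of 8 crypt markers, which include stem and Paneth cell genes, averaged 3306 CPM (1451 to 6290) in homozygous and 15220 (13610 to 18430) in heterozygous Rosa26 crypts, where 7 of 8 fell. In Vil1 crypts it averaged 1219 (791 to 1465) against 8351 (7448 to 9994), where 6 of 8 fell. The summed level of 12 immune markers was lower in homozygous villi, at 95.1 (74.2 to 108) against 202 (121 to 382) in Rosa26 and 95.6 (46.1 to 195) against 338 (259 to 438) in Vil1 mice, where 5 and 7 of 12 fell. In crypts it averaged 375 against 143 (Rosa26) and 584 against 331 (Vil1). No immune marker was at 0 in these groups. The summed stromal and vascular markers, 12 genes, were higher in homozygous Vil1 villi without overlap, at 24.9 (19.6 to 35.6) against 5.85 (4.01 to 8.90), where 3 rose and Lum was at 0 in the heterozygous group. They averaged 792 (39.7 to 2035) against 319 (26.1 to 841) in Rosa26 crypts, 47.2 (31.95 to 59.91) against 24.7 (9.24 to 54.2) in Vil1 crypts and 50.4 against 51.5 in Rosa26 villi. The 8 enterocyte markers summed to 947 (569 to 1530) in homozygous and 2412 (1238 to 3048) in heterozygous Vil1 crypts, where 4 fell, and to 3182 against 2340 in Rosa26 crypts, where none was called. The part of these cell types in the ligand, receptor and Lrig1 results was not tested.

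The organoid cultures, in which the summed immune markers averaged at most 4.80 CPM, were used to ask how the members respond to Eif4g2 loss in cultured epithelium. In the first set 6 of 9 members were called, against 35.4% of all genes (18.2% higher, 17.2% lower): Areg, Ereg, Hbegf, Btc and Egfr rose, and Lrig1 fell. Ereg stood at 2.16, 2.93 and 0.620 CPM with DMSO and 10.8, 14.8 and 6.70 with 4-OHT, without overlap. Hbegf stood at 25.4, 26.4 and 14.7 CPM against 98.1, 91.2 and 54.2. These were rises of 2.47 ± 0.52 for Ereg (edgeR adjusted p = 0.00975) and of 1.87 ± 0.29 for Hbegf (0.00309). Areg stood at 71.3, 67.4 and 34.0 CPM against 154, 182 and 150, a rise of 1.49 ± 0.26 (edgeR adjusted p = 0.00503). Btc stood at 28.4, 28.4 and 16.0 CPM against 71.8, 68.8 and 53.5, a rise of 1.41 ± 0.23 (0.00375). All 3 libraries with 4-OHT were above all 3 with DMSO for each of these ligands and for Egfr, which rose by 0.65 ± 0.14 (edgeR adjusted p = 0.00947). Lrig1 fell by 0.40 ± 0.08 (edgeR adjusted p = 0.00954), from 280, 255 and 247 CPM to 189, 199 and 205. Tgfa was at 0.42 ± 0.16 (edgeR adjusted p = 0.0844), and with the line as a block at 0.41 (0.0111). Crypt markers summed to 2326 CPM (2186 to 2598) with DMSO and 605 (534 to 650) with 4-OHT, where 6 of 8 fell, and enterocyte markers to 11790 (10480 to 14420) and 5747 (4488 to 6745), where 7 of 8 fell. Their part in the ligand, Egfr and Lrig1 values was not tested. This set had no 4-OHT control without a floxed allele.

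The second set held such a control, since all its libraries received 4-OHT. Relative to flox/+ organoids 7 of 9 members rose in flox/flox organoids, where 46.8% of all genes were called (22.6% higher, 24.3% lower). Relative to CreER-only organoids 6 of 9 rose, where 45.3% were called (21.9% higher, 23.5% lower). The 2 comparisons share the flox/flox libraries. Crypt markers summed to 3035 CPM (2549 to 3681) in flox/flox, 9220 (8805 to 10130) in flox/+ and 9553 (8847 to 10590) in CreER-only organoids, and 7 and 8 of 8 fell in flox/flox against the 2 controls. Enterocyte markers ranged from 4008 to 7130, 4182 to 8735 and 5377 to 8962 in the same order, and 4 of 8 fell in each comparison. The part of these markers in the members' values was not tested. Tgfa stood at 47.6, 49.9, 50.7 and 54.1 CPM in flox/flox, 36.4, 33.7, 33.8 and 36.1 in flox/+ and 39.5, 38.1, 42.1 and 36.1 in CreER-only organoids. The flox/flox libraries were above all others, by 0.53 ± 0.07 against flox/+ (edgeR adjusted p = 1.64e-05) and 0.38 against CreER-only (0.000349). Btc stood at 59.2, 61.1, 77.6 and 59.2 CPM in flox/flox, 32.5, 44.2, 47.5 and 38.7 in flox/+ and 44.9, 42.6, 41.5 and 44.4 in CreER-only organoids. Hbegf rose by 0.58 ± 0.11 and 0.52, Erbb2 by 0.48 ± 0.10 and 0.46, and Erbb3 by 0.56 ± 0.16 and 0.49. The Erbb3 call against CreER-only was lost in 4 of 8 fits that left out 1 library, namely flox/flox replicate 3 or 4 or CreER-only replicate 2 or 4 (adjusted p up to 0.0683), and with no filter (0.0719).

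Areg and Egfr depended on the reference in the second set. Areg stood at 69.5, 89.8, 118 and 87.7 CPM in flox/flox, 48.0, 52.1, 62.5 and 49.5 in flox/+ and 68.6, 63.2, 75.7 and 75.7 in CreER-only organoids. It rose by 0.79 ± 0.14 against flox/+ (edgeR adjusted p = 0.000577) and by 0.37 ± 0.14 against CreER-only (0.0446). The latter groups overlapped, and that call was lost in 7 of 8 fits without 1 library, all but the one without flox/flox replicate 1 (adjusted p up to 0.113), and with no filter (0.118). Egfr rose by 0.18 ± 0.06 against flox/+ (edgeR adjusted p = 0.0329), a call lost without flox/flox replicate 2, 3 or 4 or flox/+ replicate 1 or 2 (up to 0.097) and with no filter (0.0716), and was at -0.07 against CreER-only. Ereg, at 0 to 2.61 CPM in all 12 libraries, was not called, at 0.39 ± 0.90 against flox/+ (edgeR adjusted p = 0.752), and the sign of that value depended on 1 library, being -0.40 without flox/flox replicate 3. Lrig1 was at -0.19 ± 0.08 and -0.20 and not called in either. Between flox/+ and CreER-only organoids edgeR called 0 of 9 members, against 0.113% of all genes (0.0492% higher, 0.0633% lower), with 3 at an unadjusted p under 0.05, while DESeq2 called 1, Egfr at -0.26 (DESeq2 adjusted p = 0.0443).

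In flox/flox fetal spheroids 4-OHT raised the ligands Areg, Ereg, Hbegf and Btc, 4 of 9 members, where 19.1% of all genes were called (9.01% higher, 10% lower). Hbegf ran from 19.7 through a median of 31.9 to 55.3 CPM with DMSO and from 63.1 through 93.8 to 175 with 4-OHT. The groups did not overlap, and the rise was 1.51 ± 0.35 (edgeR adjusted p = 0.00452). Ereg ran from 19.0 (median 29.6) to 53.6 CPM with DMSO and from 54.3 (median 78.9) to 133 with 4-OHT, also without overlap, a rise of 1.36 ± 0.35 (edgeR adjusted p = 0.0102). Areg ran from 56.3 to 93.1 CPM against 109 to 185, a rise of 0.97 ± 0.27 without overlap (edgeR adjusted p = 0.0161). Btc ran from 41.1 to 71.6 CPM against 58.4 to 131, a rise of 0.90 ± 0.19 with overlap (edgeR adjusted p = 0.00212). Egfr (0.68 ± 0.24, edgeR adjusted p = 0.0504), Tgfa (0.52 ± 0.21, 0.0858) and Lrig1 (-0.67 ± 0.36, 0.22) were not called. With the line as a block they were, at 0.68 (edgeR adjusted p = 0.00128), 0.53 (0.00458) and -0.63 (0.00473). Crypt markers in these lines summed on average to 1842 CPM (157.6 to 5972) with DMSO and 388 (64.6 to 1196) with 4-OHT. Enterocyte markers summed to 4025 (724 to 8710) and 1461 (7.91 to 5996), and the lines differed widely in both lists. The part of these markers in the members' values was not tested.

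In flox/+ spheroids, edgeR called 0 of 9 members and 0% of all genes, with 0 members at an unadjusted p under 0.05 and 0 by DESeq2, and the members' log2 fold changes ran from -0.05 to 0.47. Eif4g2, with 1 floxed allele in these lines, was at -0.81 ± 0.24 and was itself not called. A change of that size could thus go uncalled here, so the lack of calls does not show that 4-OHT had no effect. Hbegf stood at 63.1, 58.4, 61.4, 26.6 and 19.7 CPM with DMSO and at 76.9, 73.0, 66.3, 39.7 and 24.8 with 4-OHT in the same lines. The group ranges overlapped, but within lines Hbegf was higher with 4-OHT in 5 of 5, as were Areg and Ereg, and with the line as a block 0 of 9 members were called. In flox/flox lines Areg, Ereg, Hbegf, Btc, Egfr and Tgfa were higher in 6 of 6 and Lrig1 in 0 of 6. The difference between the genotypes' responses was called for 0 of 9 members, against 1.62% of all genes (0.645% higher, 0.971% lower), with 2 at an unadjusted p under 0.05 and 0 by DESeq2. Its largest value was 1.22 for Hbegf (edgeR adjusted p = 0.265). With the line as a block 6 were called: Hbegf at 1.19 (edgeR adjusted p = 8.28e-05), Ereg at 0.85 (0.00196), Lrig1 at -0.60 (0.0128), Egfr at 0.50 (0.0295), Btc at 0.63 (0.0332) and Areg at 0.62 (0.0434). Between genotypes with 4-OHT, Areg (1.11 ± 0.29, edgeR adjusted p = 0.0164) and Ereg (1.49 ± 0.38, 0.0146) were higher in flox/flox, 2 of 9, where 10.5% of all genes were called (4.36% higher, 6.13% lower). Between genotypes with DMSO 0 of 9 were called, against 0% of all genes, with 0 at an unadjusted p under 0.05 and 0 by DESeq2. Stromal markers in flox/+ spheroids averaged 61.1 CPM with DMSO (8.21 to 228) against 4.37 in flox/flox, and their part in the genotype comparisons was not tested. Crypt markers in flox/+ spheroids summed on average to 3533 CPM (254.5 to 11710) with DMSO and 2207 (253.7 to 7772) with 4-OHT. Enterocyte markers summed to 2096 (71.43 to 5255) and 1421 (33.55 to 3528), and the part of both lists was not tested.

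**Figure D3:**
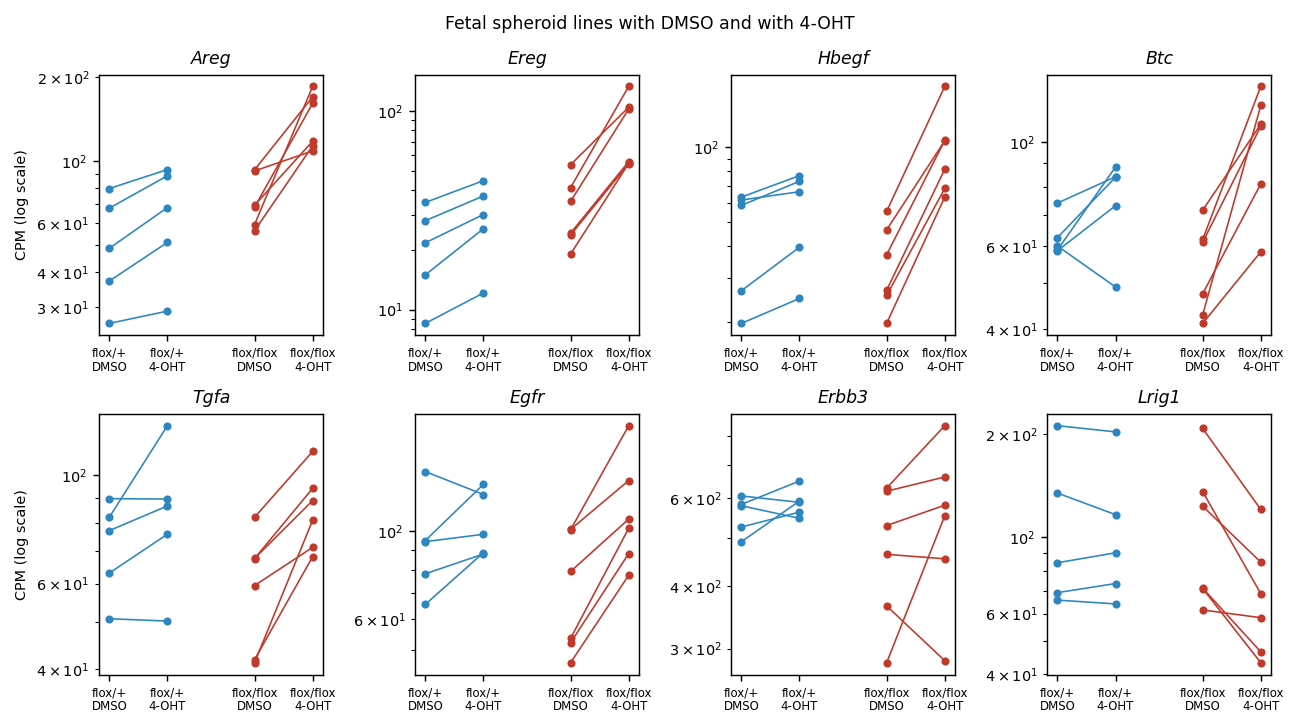
CPM (log axis) of members in fetal spheroid lines, with each line's DMSO and 4-OHT libraries joined. In flox/flox lines the 4-OHT range of Hbegf (63.1 to 175) lies above the DMSO range (19.7 to 55.3), and in flox/+ lines the ranges overlap while each of the 5 lines goes up.

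Spheroids differed from adult organoids in nearly all members when both had 4-OHT. In flox/+ cultures 8 of 9 members were called, against 47.9% of all genes (25.1% higher, 22.8% lower), and in flox/flox cultures 8 of 9, against 24.6% (15.2% higher, 9.45% lower). In both, 7 members were higher in spheroids and Lrig1 lower. Ereg was 5.19 ± 0.71 higher in flox/+ spheroids, at 25.5, 37.3, 44.5, 30.1 and 12.1 CPM against 0.066, 0.361, 1.75 and 1.25 in organoids (edgeR adjusted p = 0.00043). In flox/flox cultures the Ereg difference was 6.29 ± 0.57 (edgeR adjusted p = 0.000136). Hbegf was higher by 1.65 ± 0.31 and 1.90 ± 0.28, and the Lrig1 differences were -1.72 ± 0.30 and -2.16 ± 0.26. Erbb2 was higher by 1.32 and 0.80, and Areg was not called in flox/+ cultures (0.44 ± 0.30). Areg and Btc calls in flox/flox cultures were lost without flox/flox organoid replicate 1, 2 or 4 (adjusted p up to 0.0707 and 0.0697), and the Egfr call (0.77, edgeR adjusted p = 0.0258) without any 1 organoid library or spheroid replicate 2 (up to 0.079). Of 7 fetal spheroid markers, all 7 were higher in spheroids of both genotypes. Stromal and vascular markers averaged 43.6 CPM in flox/+ spheroids with 4-OHT and 1.66 in flox/+ organoids. In flox/flox cultures they averaged 2.91 and 1.87, and their part in these differences was not tested. Spheroids and organoids were different lines in different sets, so fetal origin, type of culture and set cannot be told apart.

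With A-485, Tgfa, Btc, Hbegf, Areg and Egfr rose at each of the 3 doses and Lrig1 fell, and Tgfa, Btc and Hbegf rose further at each step of dose. The 3 doses share their DMSO libraries. Of 9 members, 6 were called at 3 µM, 9 at 5 µM and 7 at 10 µM, with Lrig1 the 1 lower member at each dose. The share of all genes called was 19.2% for 3 µM, made of 10.8% higher and 8.42% lower. For 5 µM it was 49.6%, split into 24.4% and 25.1%, and for 10 µM 62%, split into 29.4% and 32.6%. Tgfa stood at 39.1, 35.8, 43.0 and 41.6 CPM with DMSO, 101, 79.0, 63.5 and 64.2 at 3 µM, 167, 149, 136 and 168 at 5 µM and 240, 291, 248 and 256 at 10 µM. No 2 dose groups overlapped, and the log2 rises over DMSO were 0.95 ± 0.14, 1.96 and 2.70, with edgeR adjusted p of 9.28e-05, 5.52e-09 and 4.82e-11. Btc stood at 28.6, 20.8, 27.5 and 24.1 CPM with DMSO, 48.2, 34.5, 30.2 and 50.9 at 3 µM, 82.3, 84.4, 68.2 and 117 at 5 µM and 162, 135, 155 and 194 at 10 µM. It also went up without overlap between doses, with rises of 0.70 ± 0.19, 1.80 and 2.68, where edgeR's adjusted p was 0.0136, 4.89e-07 and 1.81e-09. Hbegf stood at 11.4, 8.31, 6.95 and 10.1 CPM with DMSO and at 87.7, 83.9, 89.4 and 73.6 at 10 µM, where it had risen by 3.18 (edgeR adjusted p = 3.74e-09).

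Areg did not follow that order. It stood at 23.7, 14.1, 10.2 and 11.3 CPM with DMSO, 39.7, 34.9, 22.4 and 33.4 at 3 µM, 31.1, 33.9, 28.7 and 22.5 at 5 µM and 19.7, 28.4, 26.2 and 28.4 at 10 µM. Its rises over DMSO were 1.14 ± 0.24, 0.97 and 0.79, with an edgeR adjusted p of 0.00311, 0.0029 and 0.00871, and the dose groups overlapped. The 5 against 3 µM difference was -0.17 (edgeR adjusted p = 0.662) and the 10 against 5 µM difference -0.18 (0.68), where Tgfa rose by 1.01 and 0.74, Btc by 1.10 and 0.88 and Hbegf by 0.75 and 1.04. Ereg was near its floor, with 12, 0, 5 and 0 counts with DMSO and 62, 36, 45 and 40 at 10 µM, a rise of 3.38 ± 1.02 (edgeR adjusted p = 0.00792). At 5 µM it rose by 2.73 ± 1.01 (edgeR adjusted p = 0.032), a call lost in 5 of 8 fits that left out 1 library: DMSO 2, 3 or 4, or 5 µM 1 or 4 (up to 0.0855).

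Egfr stood at 62.7, 54.5, 62.8 and 64.2 CPM with DMSO, 114, 120, 88.5 and 157 at 3 µM, 164, 157, 138 and 210 at 5 µM and 193, 219, 228 and 245 at 10 µM. Its rises were 0.97 ± 0.15, 1.45 ± 0.16 and 1.86 ± 0.16, at an edgeR adjusted p of 0.000248, 6.17e-07 and 1.26e-08, with every treated library above every DMSO library. Lrig1 stood at 299, 241, 287 and 278 CPM with DMSO, 207, 237, 237 and 210 at 3 µM, 151, 135, 133 and 133 at 5 µM and 153, 152, 130 and 122 at 10 µM. At 5 µM it fell by 1.00, with an edgeR adjusted p of 3.5e-07, at 10 µM by 0.99 with one of 1.52e-07, with no further change called between these doses (0.01, 0.95). At 3 µM it fell by 0.31 ± 0.10 (0.0379), a call lost without DMSO replicate 1, 3 or 4 or 3 µM replicate 1 or 4 (up to 0.112). Erbb2 rose at 5 µM by 0.54 ± 0.17 (edgeR adjusted p = 0.0153), and at 10 µM it was at 0.37 ± 0.17 (0.0711) and called with the line as a block (0.35, 0.0154). Erbb3 rose at 5 µM by 0.40 ± 0.12 (edgeR adjusted p = 0.00878) and was at -0.13 at 10 µM.

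**Figure D4:**
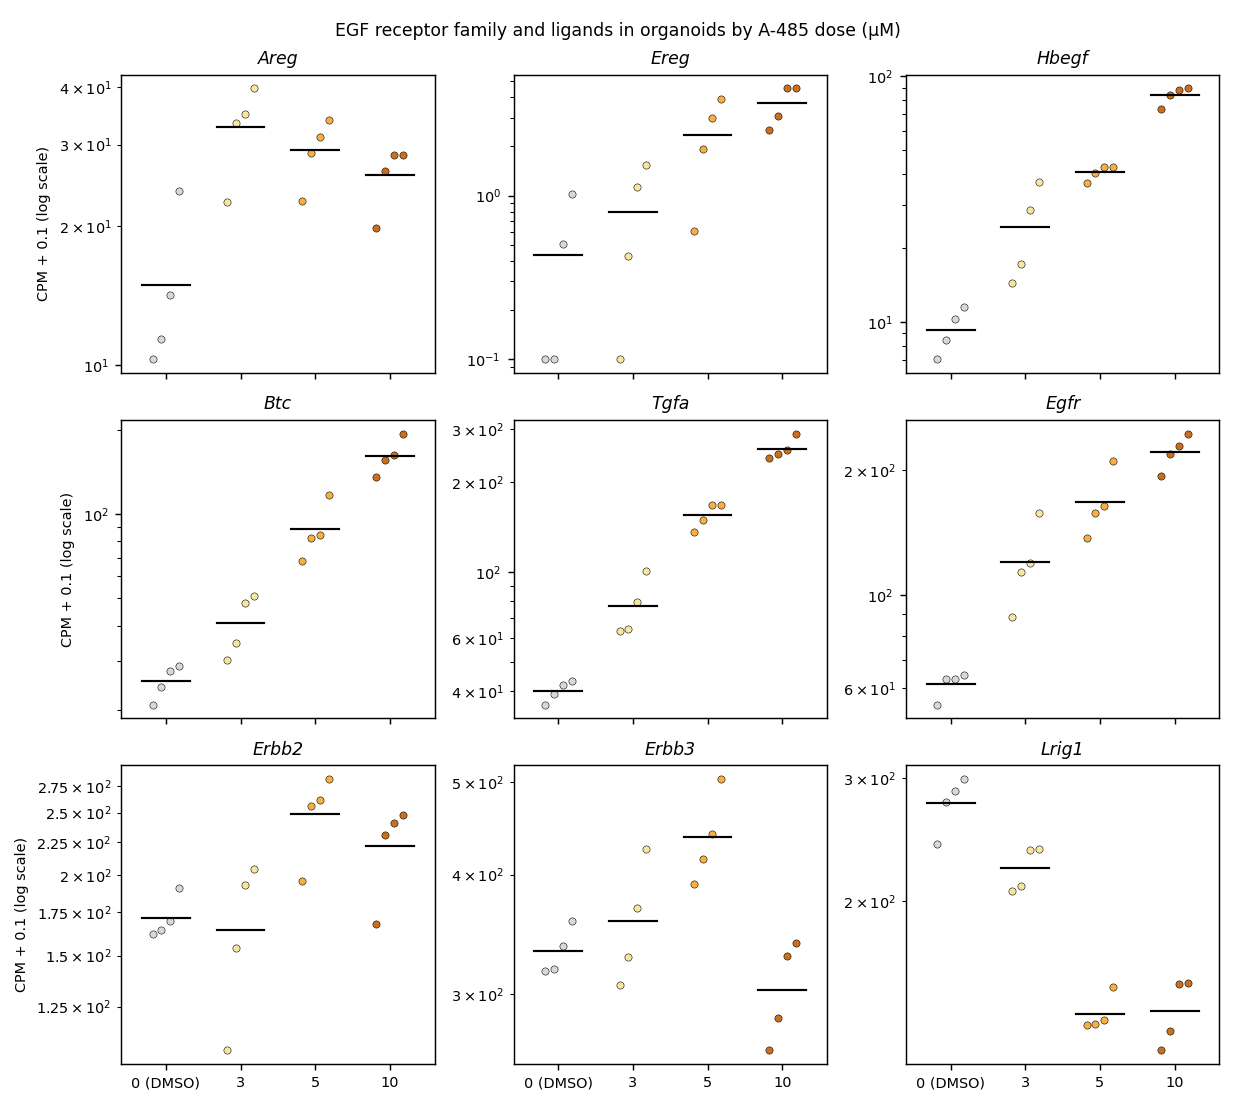
CPM (log axis) of members in organoids with DMSO or 3, 5 or 10 µM A-485, with points for the 4 libraries of each dose. Tgfa climbs from 35.8 to 43.0 with DMSO to 240 to 291 at 10 µM, and Areg has no such order among the doses.

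Between doses, 6 of 9 members were called for 5 against 3 µM, against 24.5% of all genes (11.5% higher, 13% lower), and 4 of 9 for 10 against 5 µM, against 18.9% (6.44% higher, 12.4% lower). The Egfr step from 3 to 5 µM (0.48, edgeR adjusted p = 0.0278) was lost without 3 µM replicate 1, 2 or 3 or 5 µM replicate 4 (up to 0.101), and the Hbegf step (0.0212) without 3 µM replicate 2 or 3. The Egfr step from 5 to 10 µM was not called (0.40, edgeR adjusted p = 0.0744) but was with the line as a block (0.42, 0.0124). Crypt markers summed to 8719 CPM with DMSO and 2064, 558 and 131 with rising dose, and enterocyte markers to 8286, 3738, 2888 and 215. At 10 µM all 8 of each list had fallen and Olfm4 was at 0, and immune markers summed to under 1 CPM at each dose. Pan-epithelial markers summed to 7252 CPM with DMSO and 9236, 13420 and 15210 with rising dose. Fetal spheroid markers summed to 187, 802, 1121 and 1257 in the same order, although Gja1 and Spp1 of that list were at 0 at 5 and 10 µM. The part of these marker changes in the members' values was not tested.

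The 3 measured cluster ligands were all called in some comparisons and not in others, and their upstream neighbours on chromosome 5, Mthfd2l, a mitochondrial folate enzyme gene, and Cxcl2, a neutrophil chemokine gene, were set beside them by position. In Vil1 villi Ereg rose by 3.35, Areg by 1.77 and Btc by 1.38, and Mthfd2l by 0.82 (edgeR adjusted p = 0.0103). In the first organoids Ereg rose by 2.47, Areg by 1.49 and Btc by 1.41, Mthfd2l by 0.68 (edgeR adjusted p = 0.00484) and Cxcl2 by 2.06 (0.0247). In flox/flox spheroids Mthfd2l rose by 0.61 (edgeR adjusted p = 0.00379) and Cxcl2 was at 0.14 (0.947). At 10 µM A-485 Mthfd2l rose by 0.57 (edgeR adjusted p = 0.033). In the second organoids, flox/flox against flox/+, Areg rose by 0.79, Btc by 0.66, Mthfd2l by 0.52 (edgeR adjusted p = 0.000735) and Cxcl2 by 2.06 (0.00775), and Ereg was not called (0.39, 0.752). In Vil1 crypts Ereg and Btc were called, in Rosa26 crypts Ereg alone and in Rosa26 villi Ereg and Areg. Mthfd2l was not called in Vil1 crypts (0.33, edgeR adjusted p = 0.298) or Rosa26 crypts (0.35, 0.0873). In Rosa26 villi Mthfd2l rose by 1.12 (edgeR adjusted p = 0.00417), where Ereg rose by 1.10 and Areg by 0.90. Cxcl2 was not called in Rosa26 crypts (3.63, edgeR adjusted p = 0.0618) or Rosa26 villi (0.98, 0.35). Tgfa and Hbegf, which lie on other chromosomes, rose in the same A-485 libraries, so rising was not limited to the cluster.

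**Figure D5:**
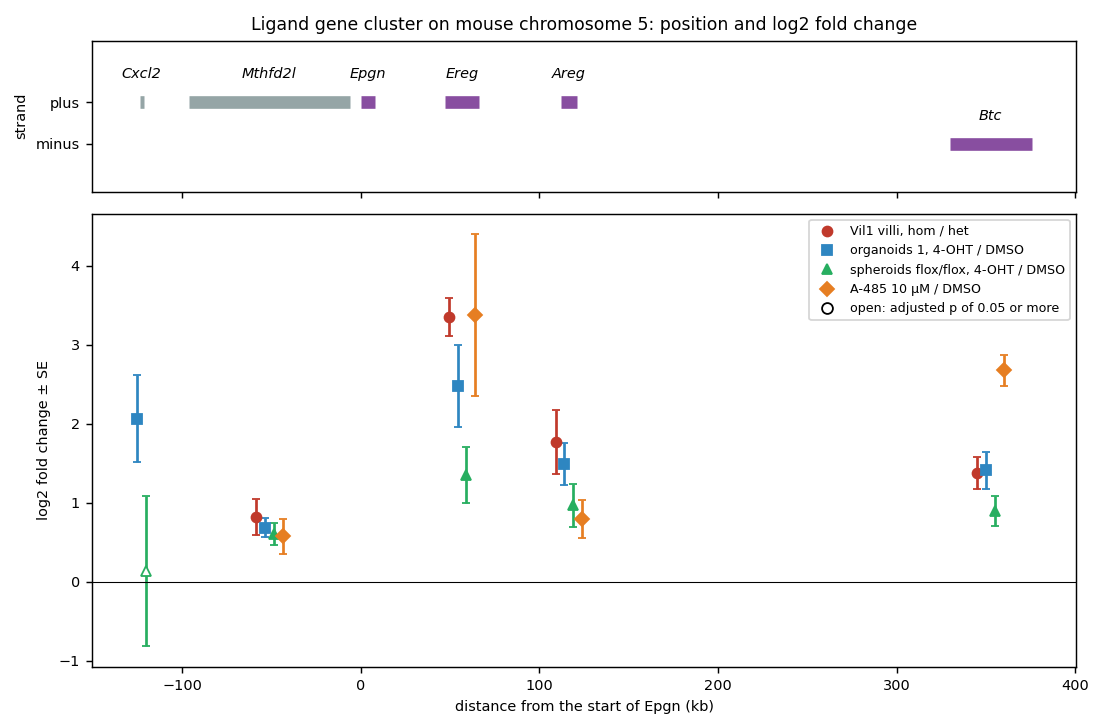
Positions of the cluster genes in kb from the start of Epgn (top) and their log2 fold change ± SE in several comparisons (bottom), with open points at an edgeR adjusted p of 0.05 or more. Ereg, Areg and Btc lie at positive values, from 1.38 to 3.35 in Vil1 villi.

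Genes that act with the members were grouped by role. Of 18 ERK targets and feedback genes, 7 rose in Rosa26 crypts, 6 in Rosa26 villi, 13 in Vil1 crypts, 8 in Vil1 villi, 13 in the first organoids and 9 in flox/flox spheroids, and none fell in these. The share of all genes that rose was 8.63%, 15%, 11.6%, 20.9%, 18.2% and 9.01% in the same order. The list median in Vil1 crypts was 0.90, against 0.01 over all genes, and with 10 µM A-485 it was 1.44 against -0.05, with 14 higher and 2 lower, where 29.4% of all genes were higher and 32.6% lower. Etv4, an ETS transcription factor gene, rose by 2.54 in Rosa26 crypts, 3.33 in Vil1 crypts and 4.35 in Vil1 villi. Dusp6, an ERK phosphatase, rose by 1.97 in Rosa26 villi and 1.55 in the first organoids, and Fosl1, an AP-1 subunit, by 2.62 in the first organoids, 2.10 in flox/flox spheroids and 4.35 at 10 µM A-485. Of 7 genes of ligand shedding, 2 rose in Rosa26 crypts, 3 in Rosa26 villi, 3 in Vil1 crypts, 6 in Vil1 villi and 4 in the first organoids, and none fell, against the same 8.63%, 15%, 11.6%, 20.9% and 18.2% of all genes. Rhbdf1, which helps deliver the sheddase ADAM17, rose by 2.40 in Vil1 villi and 0.89 in the first organoids. Among 11 receptor inhibitors and turnover genes, Errfi1, a feedback inhibitor of EGFR, rose in Rosa26 crypts (0.54) and villi (0.50), Vil1 crypts (0.79) and villi (0.60), the first organoids (0.61) and flox/flox spheroids (0.46), and by 0.84, 1.81 and 2.15 with A-485. The other genes of that list are not described, so Errfi1 does not stand for the list. Signal relay genes are not described either, nor are the role lists in the second organoids. Shedding counts are not given for spheroids or A-485. Of the 6 other receptors and ligands at most 2 passed the filter in these comparisons, and of them Nrg4, a ligand of ERBB4, fell by 0.97 in Rosa26 crypts, 1.63 in Rosa26 villi, 1.22 in Vil1 crypts, 0.85 in Vil1 villi and 1.91 in the first organoids.

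The genes most like a member over the 21 group means were found among 12225 genes, as a description. Fam91a1 was closest to Egfr (Pearson r = 0.93, Spearman rho = 0.926) and Nxpe3 to Ereg (0.958 and 0.957), by both measures. For the other members described the measures gave different genes. Areg was closest to Pard6b by Pearson (0.908) and to Lrrfip1 by Spearman (0.834), and Lrig1 to Ror2 by Pearson (0.965; rank 20 by Spearman) and to Hunk by Spearman (0.955). Tgfa, itself a member, was near Egfr at a Pearson r of 0.895, and rank 11 by Spearman. The groups share libraries' sets, media and depth, so these likenesses carry no test.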

How the data were processed

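RNA was measured as poly(A) RNA-seq in 92 libraries. The 4 deposited tables hold unnormalized counts of reads for 54532 genes. HISAT2 2.0.5 and GRCm38 are named per the submitters' processing notes, and libraries were directional (dUTP) per the labels' protocols. The counting program, annotation and strand setting are not given in the sources used here. Libraries of WENR medium named in the series' text were not used here.

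Groups came from the labels. Genes passing filterByExpr were scaled by TMM and tested with edgeR 4.0.16 (R 4.3.3; quasi-likelihood, robust, Benjamini-Hochberg over all genes tested, called at an adjusted p under 0.05), without a block. Spheroids, the second organoids and the A-485 doses were each fitted over all their groups. Alternatives were DESeq2 1.42.0, its size factors, no filter, covariates, blocks, other fits and leaving out each library. The fit was tested on simulated data: at a log2 change of 1, 49% of changed genes were recovered for Rosa26 crypts and 65% for the first organoids.

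Crypt and villus libraries shared animals, and first organoids, spheroid treatments and A-485 doses shared lines, per the labels. Blocks for these followed the animal or line, and elsewhere the number, since homozygous Vil1 crypt replicate 3 and villus replicate 4 are 1 animal. Deviations of paired libraries correlated at 0.3 to 0.489 in the first organoids, 0.356 to 0.77 and 0.616 to 0.849 in flox/flox and flox/+ spheroids, 0.0524 to 0.308 with A-485, and -0.00846 to 0.173 (Rosa26) and 0.0548 to 0.295 (Vil1) in heterozygous crypt and villus. Whether the other libraries are separate cultures is not always stated, and p-values then measure only the spread between these samples. Some spheroid lines share a leading number in their names, and some of these numbers occur in 1 genotype only. Such lines were treated as separate, so spheroid genotype and this grouping cannot be fully told apart. No 2 libraries agreed within counting noise (lowest chi-square per degree of freedom 6.26). All members were named, with up to 3 called genes of largest change per pathway list. The members and lists were chosen with earlier results of these data known.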

Additional observations from a re-analysis of the deposited data

Results flagged for a closer look

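Each member was checked within each group of 4 to 10 libraries. In 9 of 158 such combinations of member and group, 1 library lay far from the others, and chance gives about 1 in 20. Members of a group share its libraries, so the combinations are not independent. Homozygous Vil1 villus replicate 5 stood high for Egfr (166 CPM, next 89.2), Erbb3 (1090, next 892) and Tgfa (73.8, next 59.7), and replicate 4 of that group for Lrig1 (62.5, next 31.1). Heterozygous Vil1 crypt replicate 2 was low for Hbegf (3.45, next 4.78). Btc was high in flox/flox replicate 3 of the second organoids (77.6, next 61.1) and in flox/+ DMSO spheroid replicate 3 (74.1, next 62.6). In the A-485 set Egfr was low in DMSO replicate 2 (54.5, next 62.7) and Lrig1 high in 5 µM replicate 1 (151, next 135).

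The effect of genotype differed between villi and crypts, by an interaction term in edgeR. In Rosa26 mice the villus minus crypt effect was 1.82 for Egfr and 1.54 for Lrig1. In Vil1 mice it was 1.72 for Egfr, 0.607 for Erbb2, 0.931 for Erbb3, 0.543 for Tgfa and 1.48 for Lrig1.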

How the results depend on the processing

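Of the values called in the main fits, 532 of 560 under other settings and 955 of 1043 without 1 library counted as unchanged. These stayed called in the same direction, or kept the direction where the alternative gave no adjusted p. Among results not called, only 18 listed for this check were followed. Of their values, 19 of 87 under other settings and 12 of 240 without 1 library became called. One value reversed: Ereg in the second organoids, flox/flox against flox/+, was -0.40 without flox/flox replicate 3 and 0.39 with it, and leave-outs gave -0.40 to 0.93. Members called became 2 (from 4) in Rosa26 villi with the Y-linked covariate, 1 (from 0) in flox/+ against CreER-only organoids by DESeq2, 3 (from 6) for 5 against 3 µM A-485 with only those groups fitted, and 3 (from 5) for the Vil1 interaction with no filter. With a replicate block they became 7 (from 4) for 4-OHT in flox/flox spheroids, 6 (from 0) for the spheroid interaction and 0 (from 2) between spheroid genotypes with 4-OHT, whose numbers do not pair the lines. Leaving out 1 library gave 2 to 5 in Rosa26 crypts, 4 to 8 in Vil1 crypts, 5 to 8 for flox/flox spheroids against organoids and 2 to 5 for the Vil1 interaction. The cause was not tested.

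All genes called moved over 1.5 times in Rosa26 villi with the Y-linked covariate (2967 from 4504), the first organoids with A-485 libraries in the fit (3079 from 5422), flox/+ against CreER-only (60 with no filter, 156 by DESeq2 and 4 with the block, from 16), spheroids with the block (4649 from 2864 in flox/flox, 1 from 0 in flox/+), spheroid genotypes with 4-OHT (140 with the block and 880 with only those groups, from 1577) and with DMSO (9 by DESeq2, from 0), A-485 5 against 3 µM (2229 from 3358), the Rosa26 interaction (1221, 2884 and 777 with no filter, DESeq2 and the block, from 1904) and the spheroid interaction (123, 603 and 2758 likewise, from 243). Leaving out 1 library gave 1937 to 4732 genes in Rosa26 crypts (3198), 3223 to 5978 in Vil1 crypts (4960), 2016 to 4967 for flox/flox spheroids against organoids (3396), 1 to 32 for flox/+ against CreER-only (16), 1079 to 3068 for the Rosa26 interaction (1904), 1456 to 3425 for the Vil1 interaction (2766) and 131 to 362 for the spheroid interaction (243), so the shares of all genes called there moved with single libraries.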
